A study of Tilletiopsis washingtonensis and Meira miltonrushii with 14 samples.

Results

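In *Meira miltonrushii*, a fungus of the Ustilaginomycotina that grows either as budding yeast cells or as filaments, 262 genes met 3 conditions that together describe transcripts strongly raised in filamentous growth. The conditions were a mean of at least 500 normalized counts over the 3 filamentous libraries, a filamentous mean at least 4 times the yeast mean after 1 was added to each, and a lowest filamentous value above the highest yeast value. These 262 members were 3.54% of the 7400 genes in the normalized table and came from a series in which 14463 genes of 2 species were counted. Because the members were picked on the filamentous-to-yeast difference itself, that difference is described below and no test of it is given.

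Poly(A)+ RNA was taken from strain MCA 3882 (CBS12591), grown for 7 days in potato dextrose broth and then for 3 days at 25 °C in Holliday's minimal medium. The 3 yeast libraries came from medium with 1% glucose and the 3 filamentous libraries from medium with 1% Tween40, a detergent in which palmitic acid is bound as an ester. Growth form and carbon source therefore cannot be told apart in any value below. Both forms were of 1 strain, and the labels number the replicates without saying whether each was a culture of its own, so the spread between libraries may be technical.

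Dimorphic relatives of the smut fungi switch between a yeast that divides by budding and a hypha that extends at its tip, and in the maize smut *Ustilago maydis* lipids and Tweens are known inducers of the filamentous form. A fungus that lives on a fatty acid ester must split it with secreted lipases or esterases, break the fatty acids down by beta-oxidation, and rebuild sugars through the glyoxylate cycle and gluconeogenesis. Hyphal growth in turn draws on polarised secretion, cell wall synthesis and small surface proteins such as hydrophobins. Which members belong to any of these groups is not known here: the files name each gene by a protein number only, and neither they nor the reference used pair *M. miltonrushii* numbers with products or sequences. Members are therefore called below by their rank among the 262 by filamentous mean, and only 2 protein numbers are printed. Transcript lengths were also not at hand, so ranks compare read counts, which grow with transcript length, and not molecules.

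Gene counts ran from 7.29 M to 17.1 M per library, and 1 read was worth 0.621 to 1.82 normalized counts. The least sequenced member in any filamentous library still had 268 reads there (exact Poisson 95% interval 237 to 302, which covers counting error only). In the whole-table edgeR quasi-likelihood fit, 33.4% of the 6778 genes tested were called higher in filamentous growth at an adjusted p of 0.05, and all 262 members were among them. Nothing is read from that count, since the rule used the same contrast.

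The condition on the ratio was the narrow one. Of the 7400 genes, 3648 had a filamentous mean of at least 500, and 460 genes, or 6.22%, reached a ratio of 4. The 2 conditions together left the 262 members, and the condition of no overlap removed none of these. Over all genes, 34.2% had their lowest filamentous value above their highest yeast value, and among those with a filamentous mean of at least 500 it was 48.9%. Another 198 genes reached the ratio of 4 with a filamentous mean under 500, and 628 genes passed 500 with a ratio from 2 to 4. With library size as the only scaling, which shifted the median log2 fold change of all genes tested by -0.39, 168 of the 262 members still met the rule and no other gene did.

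**Figure D1:**
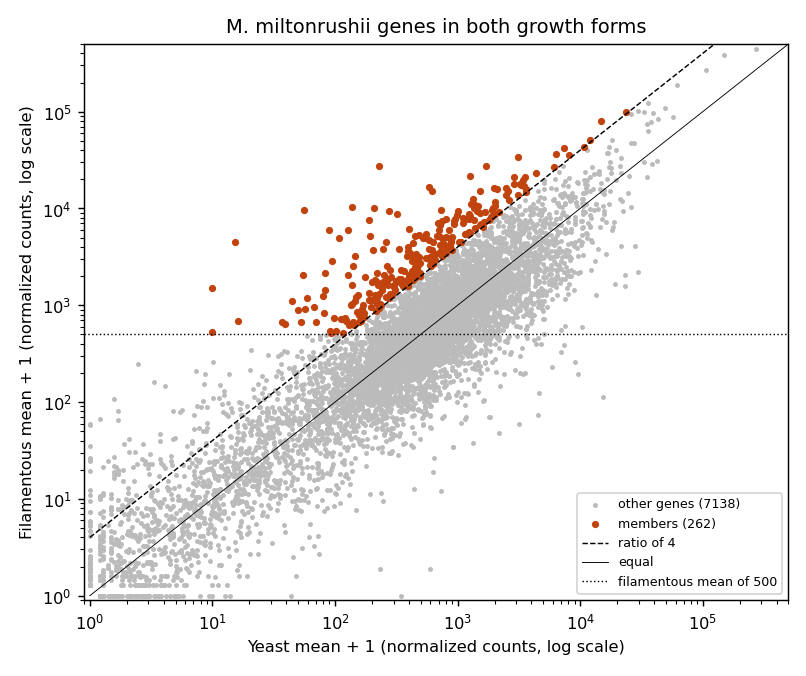
Mean normalized count plus 1 in yeast (x axis) and filamentous (y axis) libraries for each *M. miltonrushii* gene, on log scales; members are red and other genes grey. The members fill the corner above the dashed line (ratio of 4) and the dotted line (filamentous mean of 500), and a few stand far to the left of the rest, at yeast means under 100.

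Both borders ran through a continuous cloud of genes. The member closest to the limit on level had filamentous values of 504, 523 and 517 normalized counts and yeast values of 104, 150 and 92.9. The gene just below that limit, at a filamentous mean of 490 and a yeast mean of 83.1, had a ratio of 5.84. The member closest to the limit on the ratio, at 4.03, had filamentous values of 7711, 5464 and 6307 and yeast values of 1987, 1960 and 884. The gene just below it had a ratio of 3.98, with filamentous values of 3934, 3769 and 3437 and yeast values of 847, 970 and 981. The genes just below a limit were sought only among genes that met the other 2 conditions. In all 4 of these genes the filamentous libraries were therefore clear of the yeast libraries by choice. The 3 members nearest the limit on level had filamentous means of 515 to 531 and the 3 genes just below it 483 to 490. The ratios were 4.03 to 4.05 in the 3 members nearest the other limit and 3.97 to 3.98 in the 3 genes just outside it.

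Most members were raised by a moderate factor and few by a very large one, with the lower limit of 4 set by the rule. The ratio of filamentous to yeast means had a median of 5.90 and quartiles of 4.77 and 8.56. It lay between 4 and 8 in 184 members (70.2%), between 8 and 16 in 45, between 16 and 32 in 19, between 32 and 64 in 8, and above that in 6. On the log2 scale of the edgeR fit the median change of the members was 2.58, where the median over all genes tested was 0.00 with TMM factors. The gap between the forms, measured as the lowest filamentous value over the highest yeast value after 1 was added to each, had a median of 4.48 and was smallest, at 1.91, in the member ranked 120, which was singled out after its values were seen. In that member the yeast libraries stood at 393, 801 and 1514 normalized counts and the filamentous libraries at 2894, 4196 and 4182. Its ratio was 4.16, and without yeast replicate 3 it was 6.29.

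The members spanned a wide range of levels, and the median ratio differed little between levels. Filamentous means ran from 515 to 98815 normalized counts, with a median of 3239, and yeast means from 8.90 to 23516, with a median of 459.5. The median ratio was 5.65 in the 34 members with filamentous means of 500 to 1000, 5.90 in the 71 from 1000 to 2500, 6.29 in the 115 from 2500 to 10000, 6.21 in the 31 from 10000 to 25000 and 5.37 in the 11 above. Across the members, log2 ratio and log2 filamentous mean had a Pearson correlation of 0.065 and a Spearman correlation of 0.082. These points share the same 6 libraries, and the ratio contains the filamentous mean, so the values are a description only.

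In yeast growth all members were detected, and 46 of them stood in the 25% of genes with the fewest yeast reads. The median yeast mean over all genes was 519 normalized counts, and 142 members lay below it and 120 above it. Yeast means of at least 1000 were found for 66 members and yeast means under 100 for 24. No member was without reads in any yeast library. In filamentous growth 208 members stood above the 75th percentile of all genes by read count, against 57 in yeast growth. They supplied 29 of the 100 genes with the most reads in filaments and 3 of the 100 with the most reads in yeast. Of the 45 genes in the filamentous list of 100 that were not in the yeast list, 26 were members. The rule itself asked for a filamentous mean of at least 500 and at least 4 times the yeast mean. Higher standing in filaments than in yeast therefore follows in large part from the choice, and these counts are a description only.

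The member with the most reads in filaments was protein 164138. Its normalized counts were 111902, 98925 and 85620 in the filamentous libraries and 25565, 30837 and 14148 in the yeast libraries. Every filamentous value was above every yeast value, and yeast replicate 3 was the lowest of its form. The gene was already the 28th by reads in yeast and became the 9th in filaments, with a log2 fold change of 2.08 (SE 0.27). It alone took 0.752% ± 0.0926 of gene counts in filaments and 0.231% ± 0.0834 in yeast (SD, n = 3). Shares, here and below, are scaled by library size alone and not like the normalized counts. With that scaling the log2 fold change of this gene was 1.70.

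The member ranked 2 stood at 74722, 77519 and 87863 normalized counts in filaments and at 16085, 17056 and 11571 in yeast. The member ranked 4 stood at 40411, 42409 and 47884 in filaments and at 11310, 12151 and 8588 in yeast. Both had yeast replicate 3 as their lowest library and filamentous replicate 3 as their highest. Their ratios were 5.37 and 4.08, so the second of these sat just inside the border of the set.

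The members ranked 3 and 7 kept a nearly constant quotient across the yeast libraries, a likeness picked out after the values were seen. The member ranked 3 had 17325, 13195 and 5680 normalized counts in yeast and 56614, 45252 and 49406 in filaments. The member ranked 7 had 11656, 8824 and 3850 in yeast and 36603, 34238 and 37221 in filaments. The quotient of the former over the latter was 1.486, 1.495 and 1.475 in the yeast libraries and 1.547, 1.322 and 1.327 in the filamentous ones. Each fell about as far in yeast replicate 3, where both stood lowest, and whether they share sequence or reads was not tested.

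The members ranked 5 and 6 had replicate 1 as the lowest library in yeast. The member ranked 5 had 5747, 8011 and 8297 normalized counts in yeast and 37298, 43351 and 45260 in filaments. The member ranked 6 had 5141, 7699 and 6150 in yeast and 38245, 34236 and 37472 in filaments. Their ratios were 5.71 and 5.79, close to the median of the set.

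The members ranked 8 to 10 combined high filamentous levels with larger ratios. The member ranked 8 had yeast values of 2205, 3599 and 3546 normalized counts and filamentous values of 35574, 38298 and 28872, a ratio of 10.99. The member ranked 10 had yeast values of 1213, 1950 and 1925 and filamentous values of 27706, 29224 and 25793, a ratio of 16.3. The member ranked 9 was of another kind: its yeast values of 228, 168 and 289 put it 5137th among all genes in yeast, and its filamentous values of 30630, 28176 and 24241 put it 39th in filaments. Its ratio of 121 was the 4th largest of the 262.

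**Figure D2:**
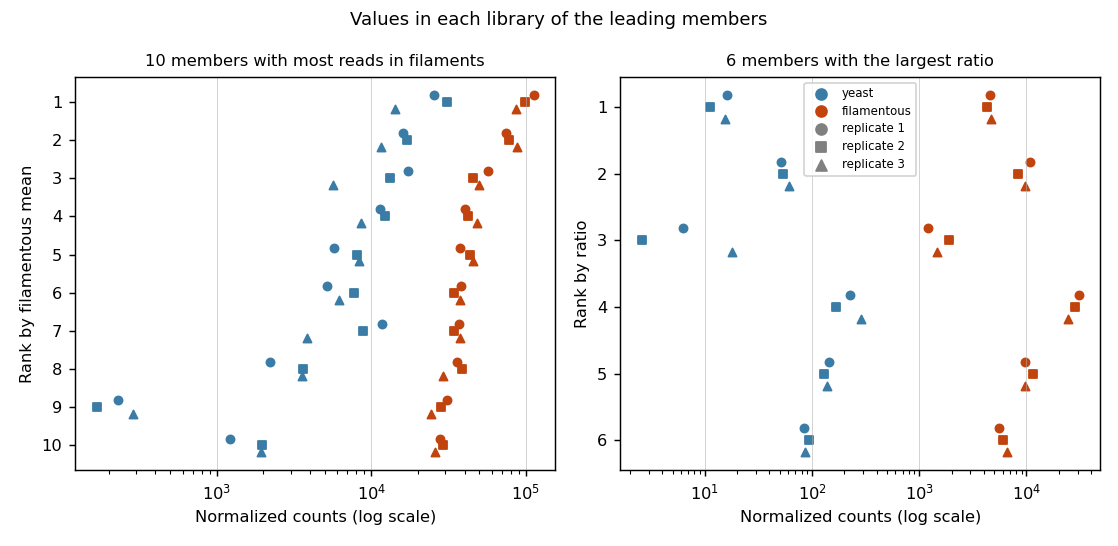
Normalized counts (x axis, log scale) in each of the 6 libraries for the 10 members with the most filamentous reads (left, by rank) and the 6 members with the largest ratio (right, by rank of the ratio); blue is yeast, red is filamentous, and the marker gives the replicate. The gap between the colours is short for most members at left and long for rank 9, and at right no filamentous value is under 1201 while no yeast value is above 289.

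The largest ratios belonged to transcripts that were rare in yeast, which is a description only, since the yeast mean is the divisor of the ratio. Protein 160091 led with a ratio of 295: its normalized counts were 16.2, 11.2 and 15.3 in yeast and 4584, 4261 and 4652 in filaments. The yeast values rest on 57 reads in all, and the filamentous libraries differed from one another by little, with a coefficient of variation of 4.64%. By filamentous mean it ranked 106 among the members.

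The member with the ratio of 171, ranked 45 by level, had yeast values of 50.9, 53.6 and 61.4 normalized counts and filamentous values of 10811, 8324 and 9776. The members with the 5th and 6th largest ratios, 74.4 and 68.2, had yeast values of 129 to 145 and of 83.9 to 93.4. Their filamentous values were 9583 to 11555 and 5536 to 6539. In these 3 genes the gap between the forms, with 1 added to each value as above, was 133, 65.5 and 58.6.

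Among the transcripts with the fewest yeast reads the size of the ratio varied with single libraries. The member with the 3rd largest ratio, 153, had yeast values of 6.21, 2.59 and 17.9 normalized counts, which came from 34 reads (exact Poisson 95% interval 23.5 to 47.5, counting error only). Its filamentous values were 1201, 1886 and 1453, and without yeast replicate 3 its ratio was 280.3. The member ranked 260 by level had yeast values of 13.0, 10.4 and 3.41 and filamentous values of 488, 483 and 622, a ratio of 53.5. In these genes the gap between the forms, again with 1 added to each value, was 63.6 and 34.4.

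Altogether 33 members had a ratio of at least 16. They took 1.69% ± 0.117 of gene counts in filaments and 0.0738% ± 0.0194 in yeast (SD, n = 3), which was 12.9% of the members' filamentous reads and 2.72% of their yeast reads. They were spread over the levels, with 6 among the 34 members of lowest filamentous mean and 2 among the 11 of highest.

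As a group the members held 12.7%, 13.4% and 13.2% of gene counts in the filamentous libraries and 2.48%, 2.95% and 2.72% in the yeast libraries. The means were 13.1% ± 0.360 and 2.72% ± 0.234 (SD, n = 3). All genes called higher in filaments gained 31.3 percentage points of gene counts between the forms, and the members' gain of 10.4 points was 33.1% of it. The calls used TMM factors and the shares library size alone, and the members were chosen for level and ratio, so this is a description only. The 10 members with the most filamentous reads took 3.63% ± 0.0482 in filaments, or 27.8% of the members' reads there. The remaining 252 members took 9.45% ± 0.408.

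When the growth forms were exchanged in the rule, 240 genes were chosen. These yeast-raised genes held 8.15%, 7.20% and 7.80% of gene counts in the yeast libraries and 0.923%, 0.833% and 0.914% in the filamentous libraries. The genes on the filamentous side thus gained 10.4 points and those on the yeast side lost 6.82 points, with similar numbers of genes. Both sets were chosen for their change and no test of the difference between them was made.

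**Figure D3:**
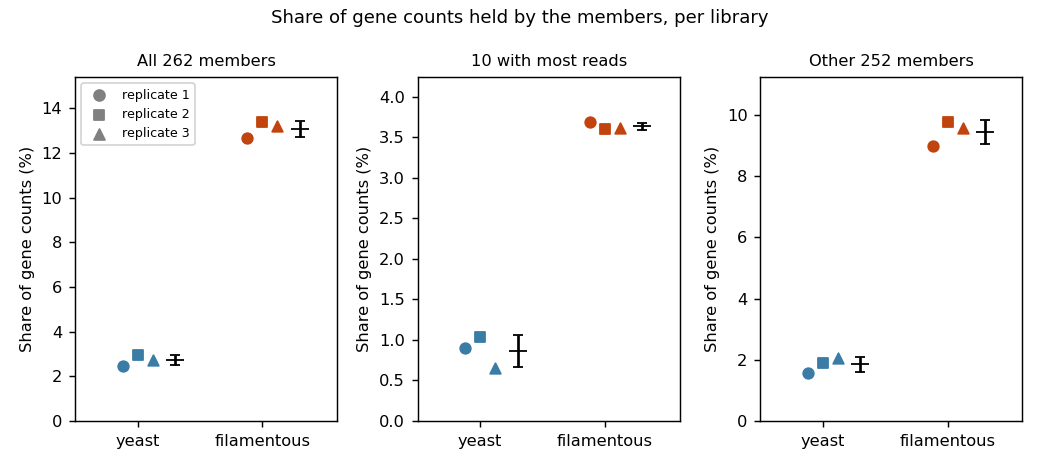
Share of gene counts (y axis, percent) in each library for all 262 members, the 10 with the most filamentous reads and the other 252; markers are replicates, and the black bar is the mean with its SD (n = 3). Yeast replicate 3 is the lowest yeast library in the middle panel, at 0.649%, and the highest in the right panel, at 2.07%.

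The yeast libraries differed among themselves more than the filamentous ones did. The coefficient of variation over 3 libraries had a median of 22.1% in yeast and 10.9% in filaments among the members, and it was larger in yeast in 212 of 262. The highest yeast value was at least 2 times the lowest in 50 members and at least 3 times in 14. In filaments it reached 2 times in 2 members and 3 times in none. The filamentous libraries held 7.29 M, 15.8 M and 9.36 M gene counts and the yeast libraries 17.1 M, 11.5 M and 11.6 M. The members' reads per gene were also fewer in yeast, and the part of read number in the spread was not tested.

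Other genes were less variable in the same libraries. The 3386 other genes with a filamentous mean of at least 500 had median coefficients of variation of 13.7% in yeast and 8.34% in filaments. At like yeast levels, within the quartiles of the members' yeast means, the median was 22.6% for 130 members and 15.6% for 2922 other genes. At like filamentous levels it was 11.4% for 130 members and 7.67% for 1112 others. These differences are a description, since no test over genes was made and genes of 1 library are not independent.

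Within yeast growth the members were most often lowest in replicate 1 and most often highest in replicate 3, each counted separately. Replicate 3 was the highest yeast library in 143 members (54.6%), and replicate 1 was the lowest in 145 (55.3%). Among the other genes with a filamentous mean of at least 500 these shares were 41.9% and 43.4%. The median deviation from the yeast mean on the log2 scale was -0.17 in replicate 1, 0.06 in replicate 2 and 0.17 in replicate 3 for the members, and -0.03, 0.01 and 0.04 for the other genes. For the 240 genes raised in yeast the medians were 0.02, -0.10 and 0.08, opposite in sign to the members in replicates 1 and 2 and of the same sign in replicate 3.

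**Figure D4:**
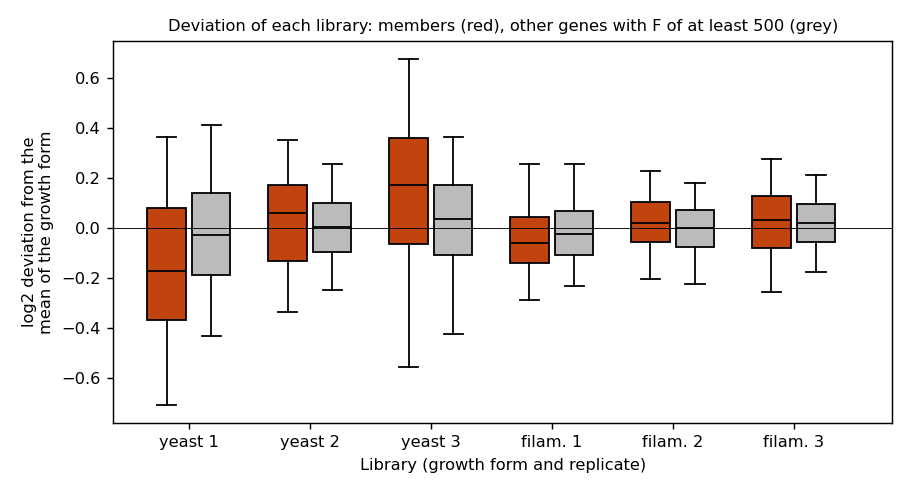
Log2 deviation of each library from the mean of its growth form (y axis) for the 262 members (red) and the 3386 other genes with a filamentous mean of at least 500 (grey); boxes are quartiles with the median, whiskers the 5th to 95th percentiles. The red medians go from -0.17 in yeast replicate 1 to 0.17 in yeast replicate 3 while the grey ones stay within 0.04 of 0, and the filamentous boxes are narrower.

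The members with the most reads were divided. Of the 10 with the highest filamentous mean, 5 were lowest in yeast replicate 3 and 4 in yeast replicate 1. Of the 8 with a yeast mean of at least 5000 normalized counts, 6 were lowest in yeast replicate 3, where 23.7% of all members and 31.0% of the other genes with a filamentous mean of at least 500 were lowest. The 10 members with the most filamentous reads together took 0.906%, 1.04% and 0.649% of gene counts in yeast replicates 1, 2 and 3, and the other 252 took 1.57%, 1.91% and 2.07%. The sum over the 10 was lowest in yeast replicate 3, as were its largest terms, the members ranked 1 to 4 and 7, and the sum over the other 252 was highest there. Of the 50 members whose yeast values spanned at least 2 times, 34 were highest and 15 lowest in replicate 3, and 28 were lowest and 11 highest in replicate 1.

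Some members made the contrast within yeast plain. The member ranked 21 had yeast values of 346, 339 and 1062 normalized counts and filamentous values of 15861, 20456 and 13395. Its ratio of 28.4 became 48.2 without yeast replicate 3. The member ranked 74 had yeast values of 205, 832 and 1127 and filamentous values of 5878, 7287 and 7172. In both, the highest yeast value was more than 3 times the lowest while the filamentous libraries stayed far above all of them. These 2 were singled out after their values were seen.

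Among the filamentous libraries replicate 1 was the lowest in 131 of 262 members, against 42.8% of the other genes with a filamentous mean of at least 500. The median deviations were small, at -0.06, 0.02 and 0.03. The member with the widest filamentous spread, ranked 13, had 14319, 35910 and 13962 normalized counts in filaments and 1102, 714 and 1962 in yeast. Filamentous replicate 2 stood far above the others, and without it the ratio was 11.2 in place of 17.0. The next widest, ranked 248 and 261, had filamentous values of 983, 610 and 463 and of 719, 441 and 392, with replicate 1 the highest in each. Their yeast values, at 5.12 to 25.1 and 82.2 to 101, remained well below.

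Leaving out 1 library moved the ratio of a member by over 1.5 times in 5 cases, 4 of them through yeast replicate 3 and 1 through filamentous replicate 2. The ratio fell under 4 without some library in 33 members, and the lowest value so reached was 3.24.

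The choice of genes was also made on 4 libraries at a time, and the difference was read in the libraries whose values it had not used. The deposited scaling factors were kept and not worked out again for the 4 libraries. With replicate 1 of both forms left out, 259 genes met the rule, 246 of them members. In the left-out libraries filamentous exceeded yeast in all 259, against 61.1% of all genes with a filamentous mean of at least 500 in the choosing libraries. It did so by at least 4 times in 228 (88.0%), against 8.39% of all genes above that mean. With replicate 2 left out, 266 genes were chosen, 251 of them members, and 224 (84.2%) reached 4 times in the left-out libraries, against 7.51%. With replicate 3 left out, 286 genes were chosen, 252 of them members, and 214 (74.8%) reached it, against 6.94%.

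The median ratio in the left-out libraries was 6.82, 6.17 and 5.34, and in the libraries that chose the genes it was 5.79, 5.92 and 6.11. It was therefore higher than in the choosing libraries when replicate 1 was read and lower when replicate 3 was read. The lowest left-out ratio in any chosen gene was 2.38, 1.74 and 1.30, so no gene chosen in this way was reversed in the remaining libraries. A gene is represented by 1 library a form in each of these readings, and no test was made. Most genes chosen in this way were members, which the left-out libraries had helped to pick, so the readings are a description only.

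**Figure D5:**
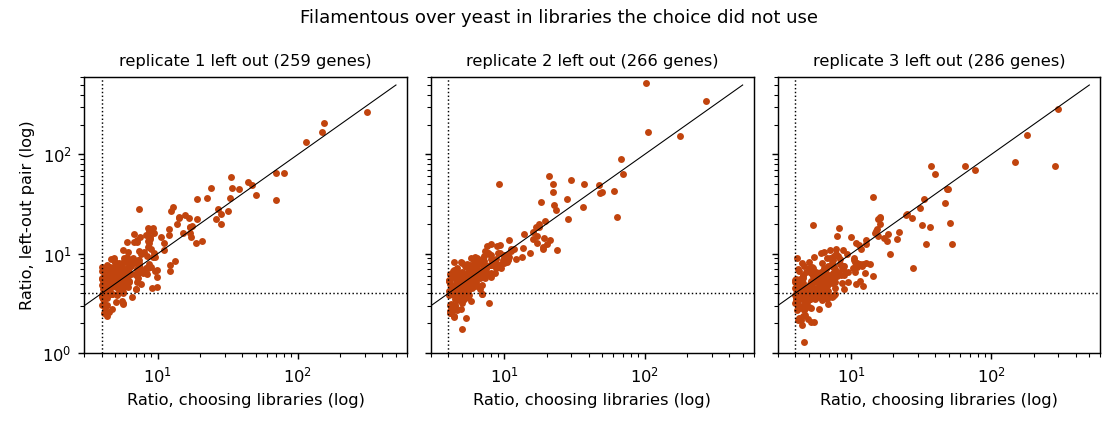
Ratio of filamentous to yeast normalized counts in the left-out libraries (y axis, log scale) against the ratio in the 4 libraries that chose the genes (x axis, log scale), for each replicate left out; dotted lines mark a ratio of 4 and the solid line equality. All points lie above 1, and more of them fall under 4 when replicate 3 is the one left out.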

How the data were processed

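Counts per protein number were deposited by the authors as whole numbers. Per the submitters' processing notes the tools were DESeq2 1.20.0, HTSeq 0.7.0, TopHat2 2.1.1 and cutadapt 1.13, with no role stated. No genome build or strand setting was given in the sources used here, so overlapping or near-identical genes may share reads. The deposited normalized signal is the count over a single scaling factor for each library, with a largest relative deviation of 5e-15, and leaves out 52 genes with no count. The rule was applied to that signal.

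Lines naming no gene were kept out: reads with no feature were 14.3% to 16.2%, multiply aligned reads 1.55% to 2.01% and ambiguous reads at most 0.0129% of the listed totals. Fold changes came from R 4.3.3 with edgeR 4.0.16 on the 6 *M. miltonrushii* libraries (filterByExpr, TMM, robust quasi-likelihood fit on growth form, Benjamini-Hochberg threshold of 0.05). The SE is the absolute log2 fold change over the square root of the F statistic. Data were simulated with the depths and mean levels of these libraries, a single assumed dispersion for all genes and 200 changed genes, as many raised as lowered. Of 6780 genes run, 91 of 100 changed 2-fold and 100 of 100 changed 4-fold were recovered, and 3.05% of calls were false. Recovery in the real data, where spread differs between genes and more genes change, may differ. DESeq2 1.42.0 and limma 3.58.1 served as alternatives; Python 3.11.15, pandas 2.3.3 and matplotlib 3.10.9 did the rest.

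The members, lists and tests were chosen with earlier results of these data known. Genes described singly were the 10 members of highest filamentous mean, the 6 of largest ratio, the 3 of widest filamentous spread, the 3 of highest yeast mean, the 3 of lowest yeast counts and those nearest each threshold, some of which are given only as ranges. The members ranked 21, 74 and 120 were added after their values were seen. Replicate numbers are those of the sample titles; the column labels number the libraries otherwise, and there only the replicate 2 libraries share a number. Lists by product name and the comparison with *Tilletiopsis washingtonensis* counterparts, which need annotation or sequences of both species, were not run.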

Additional observations from a re-analysis of the deposited data

How the results depend on the processing

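The number of members depended on the scaling and on the ratio. With library size alone it was 168, with a ratio of at least 3 it was 432, and with a ratio of at least 8 it was 78. It was 228 to 290 under the other limits on level, an added constant of 10, TMM scaling or no condition on overlap, and 259 to 288 with 1 library, or 1 replicate of both forms, left out. Library size alone shifted the median log2 fold change of all genes by -0.39 and upper-quartile factors by -0.14; the median of the members was then 2.20 and 2.45. It was 2.52 to 2.69 with 1 library left out, and 2.55 to 2.59 in the remaining fits. Genes called higher over the whole table were 2264 with TMM and 1483 with library size alone, when 32.2% of calls were higher against 50.5%; with upper-quartile factors it was 43.9%. All 262 members were called higher with DESeq2, library size alone, upper-quartile factors and the replicate block. Over the whole table these fits called 2289 of 7400, 1483 of 6778, 1970 of 6778 and 2335 of 6778 genes higher, in that order. Nothing is read from the count of members, since the rule used the same contrast.

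With all listed reads as the denominator the members' shares were 10.8% in filaments and 2.28% in yeast. Leaving out 1 library gave 12.9% to 13.3% and 2.60% to 2.83%. Of 338 alternative fold changes of 26 members described singly or nearest a limit, none changed sign and 36 moved by more than the SE, 18 of them with library size alone. The rule had set every filamentous value above every yeast value, so nothing is read from the unchanged sign. Of the title numbers, the column labels give a shared number to replicate 2 alone. Deviations of libraries with the same title number correlated at 0.23, -0.09 and 0.18 between the forms, and those of differently numbered libraries at -0.264 to 0.142. Whether the numbers pair the libraries was not tested, and the main fit did not pair them. With the replicate block 4585 genes were called in place of 4479, and the median of the members was 2.59. Where a library left out leaves 2 in a form, these are assumed to vary like the other form. No other cause of these shifts was tested.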
